A study of Mus musculus with 14 samples.

Results

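Liver sinusoidal endothelial cells (LSECs) line the smallest vessels of the liver. The report follows 10 genes in mouse LSECs: the Wnt ligands Wnt2 and Wnt9b, the signal amplifier Rspo3, the receptor Fzd4 and co-receptors Lrp5 and Lrp6, the dickkopf-family protein gene Dkk3, the pathway target Axin2, and Kit and Cdh13, used as markers of endothelium near the central vein. They were chosen by gene symbol from a list of endothelial Wnt and pericentral genes, not by their values, and are 10 of the 54524 genes in the count table. Each symbol matched exactly 1 Ensembl gene of the GENCODE mouse annotation, and all 10 passed the filter on low counts, as did 26626 genes in all.

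The study asked how the LSEC transcriptome changes after acute liver injury. LSECs came from male Balb/c mice aged 10-12 weeks, either healthy (n = 4) or 1 day (n = 2), 3 days (n = 4) or 7 days (n = 4) after a single intraperitoneal dose of carbon tetrachloride (CCl4, a hepatotoxin) of 0.5 µL per gram in mineral oil. The healthy mice were not injected, so that CCl4 and its oil cannot be told apart. Cells were sorted as CD32+ F480- and negative for UV and PI signal, and were not cultured; the methods of the study also name a gate against CD45, the surface protein of immune cells; each library is labelled as a separate sample of its group.

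Wnt proteins bind Frizzled receptors together with Lrp5 or Lrp6 and stabilise beta-catenin, which then drives target genes with TCF/LEF factors. R-spondins amplify the signal by removing ubiquitin ligases that would otherwise clear Frizzled from the membrane. In the liver, endothelial cells around the central vein are a known source of Wnt2, Wnt9b and Rspo3, and these signals hold neighbouring hepatocytes in their pericentral programme.

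The libraries held 46401496 to 103912264 counted reads, and values are given as CPM, the counts of a gene scaled to a common library size with TMM factors. All 15 LSEC and endothelial markers were detected in every group. Their summed level lay between 21610 and 25620 CPM in healthy libraries. It lay between 15180 and 18670 CPM on day 1, 13160 and 18650 CPM on day 3, and 13080 and 18050 CPM on day 7. Single markers of the list went both ways: 2 of 15 were called higher and 3 lower at day 1, 1 higher and 4 lower at day 3, and 1 lower at day 7, with Lyve1 at 3020 to 3397 CPM at day 1 and 271 to 534 CPM in healthy libraries. Fcgr2b, the gene of the sorting marker CD32b, lay between 2443 and 3397 CPM in healthy libraries. It lay between 1585 and 1798 CPM on day 1, 1392 and 1780 on day 3, and 1380 and 2555 on day 7. The study also saw less CD32b staining at days 1 and 3. Whether the gate took different cells in different groups was not tested. Markers of other cells were present too. The summed level of 11 monocyte and neutrophil markers lay between 623 and 1669 CPM in healthy libraries, 4674 and 8935 on day 1, 1784 and 14180 on day 3, and 4650 and 10280 on day 7. The summed level of 15 stellate cell and fibroblast markers lay between 159 and 289 CPM in healthy libraries, 115 and 141 on day 1, 877 and 2718 on day 3, and 472 and 7719 on day 7, with 12 of 15 called higher on each of the later days. No marker of these 3 lists was at 0 in every library of a group. The summed level of 9 Kupffer cell markers lay between 301.9 and 1940 CPM in healthy libraries and 1002 and 2208 on day 1. It lay between 567 and 1510 CPM on day 3 and 639.5 and 1758 on day 7. That of 5 cholangiocyte markers lay between 79.2 and 193 CPM in healthy libraries and 598 and 5255 on day 7. Of these 5, Spp1 alone was at 567 to 5238 CPM on day 7. The part of other cells in the results was not tested, and in such bulk samples fewer cells of a type and less RNA per cell cannot be told apart. The 4 day 3 libraries were the least alike, with correlations of log2 CPM between pairs of 0.875 to 0.963, and held 34678, 34768, 28203 and 22986 detected genes in replicates 1 to 4, against 28534 to 30735 in healthy libraries.

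**Figure D1:**
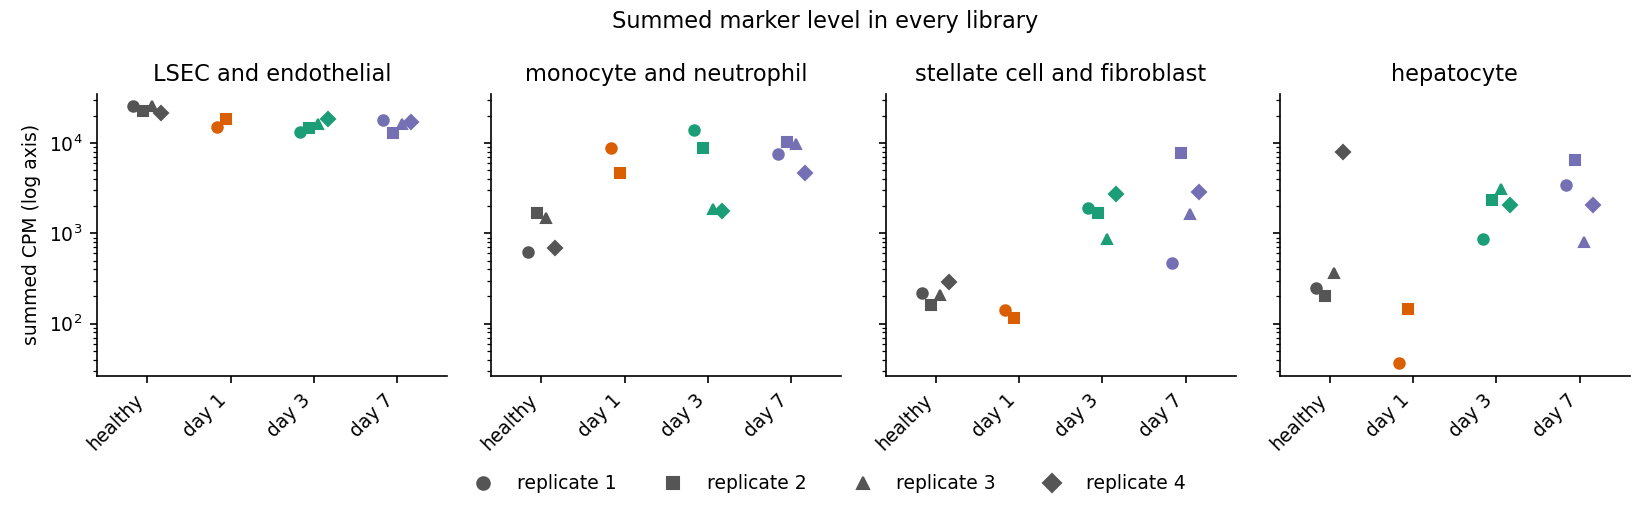
Summed CPM (log axis) of 4 lists of cell type markers in every library, by group, with the symbol showing the replicate number. The sum of the LSEC and endothelial markers was lower in every injured library than in the healthy libraries, day 3 replicates 1 and 2 had 14180 and 8766 CPM of monocyte and neutrophil markers against 1855 and 1784 in replicates 3 and 4, and healthy replicate 4 had 8066 CPM of hepatocyte markers.

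Promoter windows of RefSeq (build GRCm38.p6, from 250 bases before to 50 after a transcription start) matched 5 of the 10 genes by symbol: Wnt2, Wnt9b, Fzd4, Kit and Axin2. The 150 bases before the start are shown for Wnt9b, the ligand with the widest spread at day 3, and for Axin2, the gene of the set that beta-catenin is known to activate, as part of the windows in which a TCF/LEF core was looked for. Wnt9b lies at chr11:103749822-103749971 on the minus strand and Axin2 at chr11:108920199-108920348 on the plus strand, both written 5′ to 3′ on the strand of the gene, in lower case throughout because neither holds the core that capitals would mark.
Wnt9b: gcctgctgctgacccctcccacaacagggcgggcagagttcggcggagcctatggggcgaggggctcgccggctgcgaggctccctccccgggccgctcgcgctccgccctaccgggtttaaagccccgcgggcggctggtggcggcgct
Axin2: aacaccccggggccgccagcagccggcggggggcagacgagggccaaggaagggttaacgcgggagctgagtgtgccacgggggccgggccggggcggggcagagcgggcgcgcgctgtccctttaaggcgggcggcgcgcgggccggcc
The core was searched as CTTTGAT or CTTTGAA on either strand. It was in 0 of the 6 windows of these 5 genes and in 8.65% of the 32851 windows of the whole table. The absence says only that these letters are not in these windows.

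In healthy LSECs the 10 genes spanned a wide range of levels, which were compared per kilobase of exon. Wnt2 was the highest at 104.8 ± 24.6 CPM per kb (SD, n = 4), above 97.9% of all tested genes, followed by Dkk3 at 33.4 ± 3.18 CPM per kb. Next came Fzd4 at 12.5 ± 1.88, Rspo3 at 9.94 ± 0.912, Cdh13 at 9.49 ± 1.34, Lrp6 at 7.44 ± 0.831 and Kit at 6.77 ± 0.941 CPM per kb, and each of these overlapped its neighbour in the order. Lrp5 at 2.65 ± 0.269, Wnt9b at 1.62 ± 0.472 and Axin2 at 0.195 ± 0.0759 CPM per kb followed with no overlap between neighbours. Axin2 was above 30.9% of tested genes and had as few as 30 reads in a library (day 1 replicate 1), the smallest count of any of the 10 genes.

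**Figure D2:**
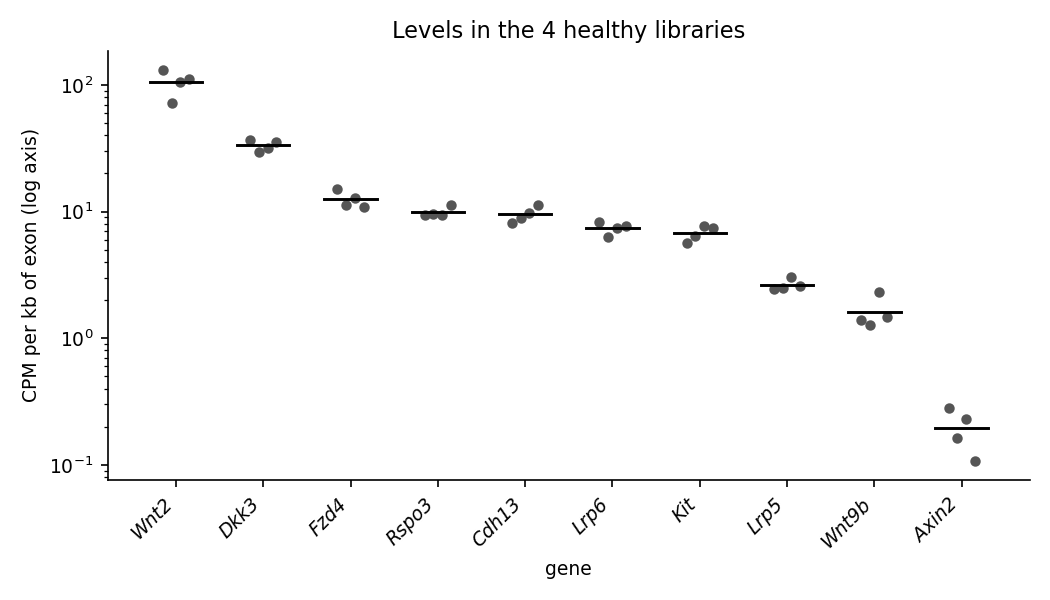
CPM per kb of exon (log axis) of the 10 genes in the 4 healthy libraries (points) with their means (bars), ordered by mean. Wnt2 stands at 104.8 and Axin2 at 0.195 CPM per kb, and the 5 genes from Fzd4 to Kit each overlap their neighbour.

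After CCl4, Dkk3 fell at days 3 and 7. It was the single gene of the 10 called against healthy LSECs at an adjusted p under 0.05 (edgeR's quasi-likelihood test, Benjamini-Hochberg adjustment over all genes tested). On average, Rspo3 was several-fold higher at days 1 and 3, Wnt2 and Cdh13 were lower at every time point, and Lrp6 was lower at days 1 and 3 and back at the healthy level at day 7. These values did not pass that threshold against healthy LSECs, and Wnt2 at day 3 was below the healthy range in replicates 3 and 4 only. At day 1, 0 of the 10 genes were called, against 4.06% of all tested genes. An unadjusted p under 0.05 was held by 3 (Rspo3, Lrp6 and Fzd4), against 17.9% of all tested genes. DESeq2 called 2 of the 10 and 2806 genes in all. Limma voom with quality weights called 3 of the 10, and its counts over all genes are given further below. At day 3, 1 was called against 7.19% of all tested genes, and 5 had an unadjusted p under 0.05, against 22.2%. At day 7, 1 was called against 3.18% of all tested genes, and 3 had an unadjusted p under 0.05, against 21.1%. The 3 comparisons share the 4 healthy libraries. Their median log2 fold change over the 10 genes was -0.32 at day 1, -0.04 at day 3 and 0.04 at day 7, against -0.03, 0.18 and 0.02 over all tested genes.

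Counting genes whose libraries did not overlap the healthy ones gave 6 of 10 at day 1 (37.9% of all tested genes), 2 of 10 at day 3 (14.4%) and 3 of 10 at day 7 (20.8%). A test of any difference among the 4 groups called Dkk3 and Lrp6, 2 of 10, against 12.0% of all tested genes; of the fits that left out a library, Lrp6 was called only in that without day 3 replicate 4, and Dkk3 in each. Between injured time points, the fall of Dkk3 from day 1 to day 3 was the 1 call (2.54% of all tested genes). From day 1 to day 7, 0 of 10 were called (8.04% of all tested genes), with 4 at an unadjusted p under 0.05 (24.6%). DESeq2 called 2 of the 10 and 4538 genes in all, and limma called 5 of the 10. From day 3 to day 7, 0 of 10 were called (1.77% of all tested genes), with 3 at an unadjusted p under 0.05 (18.8%). DESeq2 called 1 of the 10 and 1731 genes in all, and limma called 3 of the 10. The limma counts over all genes in these comparisons are not given here.

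**Figure D3:**
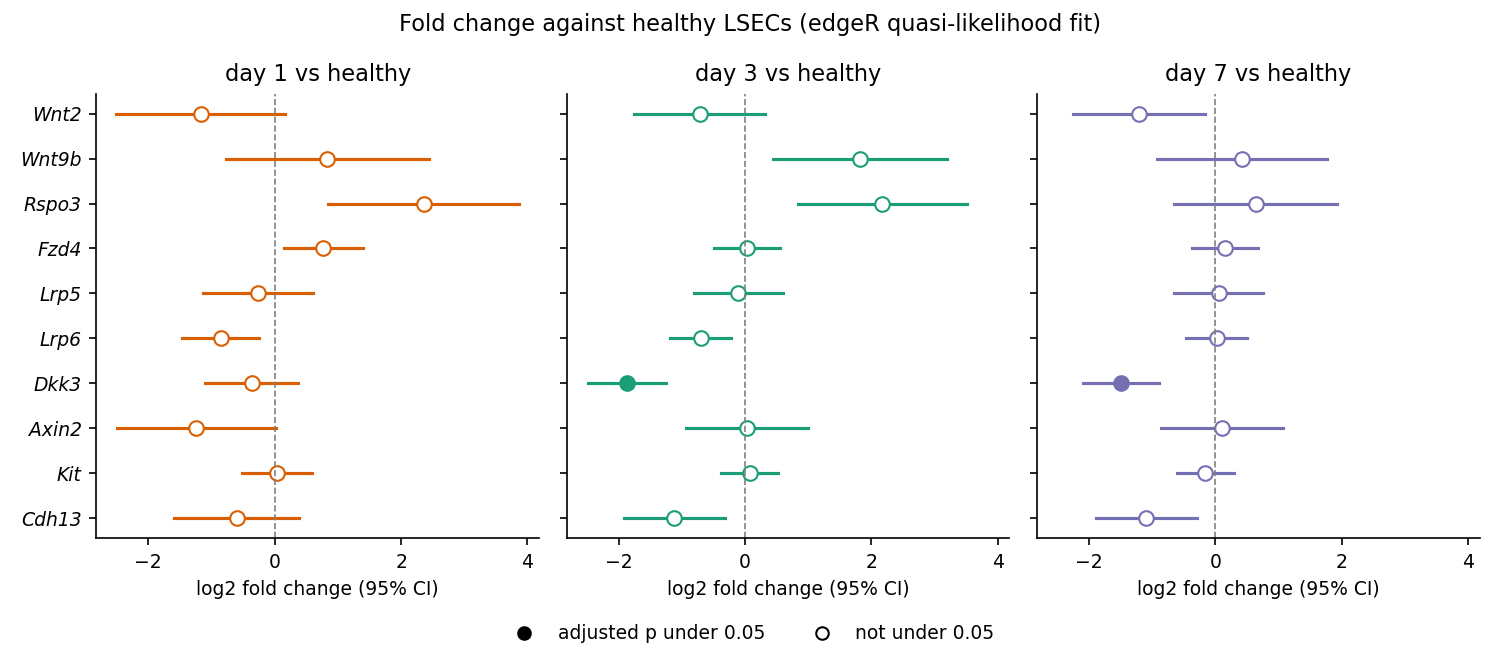
Log2 fold change of each gene against healthy LSECs at days 1, 3 and 7 with its 95% confidence interval, from the edgeR quasi-likelihood fit; filled points passed an adjusted p of 0.05. Dkk3 at days 3 and 7 (-1.87 and -1.49) has the only filled points.

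Wnt2 (chr6:17988940-18030585, minus strand, GRCm38), the main endothelial Wnt ligand by level, was at 295, 162, 238 and 252 CPM in healthy replicates 1 to 4 and at 90.4 and 120 CPM at day 1. The day 3 replicates were at 215, 259, 64.4 and 37.1 CPM, and those of day 7 at 120, 63.2, 103 and 123 CPM. Every day 1 and day 7 library was below every healthy library, whereas day 3 replicates 1 and 2 lay within the healthy range and replicates 3 and 4 far below it. The fitted log2 change was -1.17 (SE 0.62, adjusted p = 0.361) at day 1, -0.72 (SE 0.48, adjusted p = 0.425) at day 3 and -1.21 (SE 0.49, adjusted p = 0.176) at day 7 by edgeR's test. Leaving out day 3 replicate 2 moved the day 3 value to -1.14, and leaving out day 3 replicate 4 to -0.51. Over 22 alternative fits the day 3 value ranged from -1.14 to -0.06, and none called it. Of the same 22 fits, 1 called Wnt2 at day 1 and 2 called it at day 7.

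Wnt9b (chr11:103727364-103749821, minus strand) was the minor ligand of the pair. Its level was 6.32, 5.75, 10.4 and 6.68 CPM in healthy libraries and 8.49 and 17.5 CPM at day 1. At day 3 it was at 32.0, 59.3, 5.88 and 5.97 CPM, and at day 7 it was 4.69, 10.5, 11.5 and 12.4 CPM. Day 3 replicates 1 and 2 were the highest of all 14 libraries, while replicates 3 and 4 lay within the healthy range, so that the groups overlapped at every time point. Its log2 fold change at day 3 was 1.82 (SE 0.64, adjusted p = 0.109, edgeR), with 0.83 at day 1 (adjusted p = 0.646) and 0.42 at day 7 (adjusted p = 0.747). The day 3 value ranged from 1.02 to 2.31 over 22 alternative fits, its lowest without day 3 replicate 2, and was called in 3 of them.

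The ratio of Wnt9b to Wnt2, both per kb, was 0.0107 to 0.0219 in healthy libraries and 0.0469 to 0.0732 at day 1. It was 0.0456 to 0.114 at day 3 and 0.0196 to 0.0827 at day 7. Every day 1 and day 3 library was above the healthy range, and at day 7 replicate 1 alone lay within it. Wnt2 was the more abundant of the 2 ligands in all 14 libraries.

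Rspo3 (chr10:29452416-29535867, minus strand) encodes the R-spondin that endothelial cells release. It was at 29.2, 29.4, 29.3 and 34.9 CPM in healthy libraries, the lowest coefficient of variation of the set (9.18%), and at 135 and 180 CPM at day 1. On day 3 its level was 217, 270, 42.7 and 24.3 CPM, and on day 7 it was 20.6, 72.6, 43.3 and 54.6 CPM. Both day 1 libraries were above every healthy library, and at day 3 replicates 1 and 2 were the highest of all libraries, replicate 3 was just above the healthy range and replicate 4 below it. The log2 fold change was 2.36 (SE 0.70, adjusted p = 0.0808) at day 1, 2.17 (SE 0.62, adjusted p = 0.0509) at day 3 and 0.64 (SE 0.60, adjusted p = 0.577) at day 7 by edgeR's test. In unlogged terms the fitted values were 5.13-fold higher at day 1 and 4.51-fold higher at day 3. From day 3 to day 7 the log2 change was -1.53 (adjusted p = 0.207).

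Without day 3 replicate 4, Rspo3 was called by edgeR at day 1 (log2 fold change 2.33, adjusted p = 0.0186) and at day 3 (2.40, adjusted p = 0.0104). DESeq2 on all libraries also called Rspo3, with an adjusted p of 0.0165 at day 1 and 0.004 at day 3. Over 22 alternative fits the adjusted p of Rspo3 ranged from 0.000953 to 0.338 at day 1 and from 0.000574 to 0.145 at day 3. It was called in 4 of the 22 at day 1 and in 6 at day 3. The summed stellate cell and fibroblast markers were 159 to 289 CPM in healthy libraries and 141 and 115 CPM in the day 1 libraries. They were 1927, 1682, 877 and 2718 CPM in day 3 replicates 1 to 4. Monocyte and neutrophil markers were high in the same day 1 and day 3 libraries as Rspo3, and also at day 7. The part of either kind of cell in the Rspo3 values was not tested. An exon of the antisense gene Gm48159 overlaps Rspo3, and the library kit does not mark strand, so reads of the 2 genes cannot be told apart there.

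**Figure D4:**
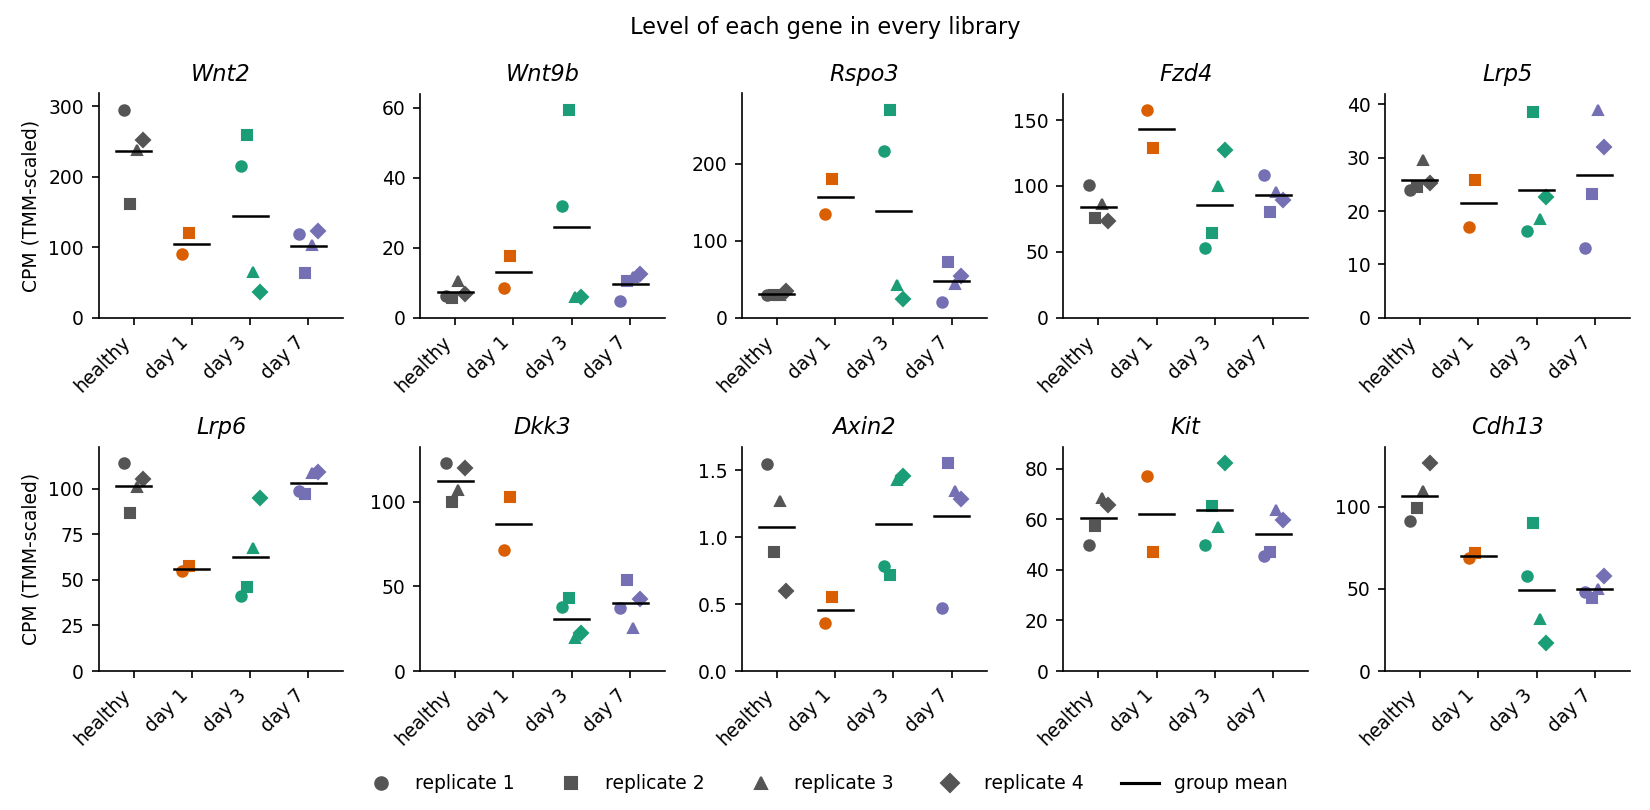
CPM of each of the 10 genes in every library, with a symbol for the replicate number and a bar for the group mean; each vertical axis starts at 0 and has its own scale. Dkk3 at days 3 and 7 lies wholly below the healthy libraries, and Wnt2, Wnt9b and Rspo3 at day 3 are each split between replicates 1 and 2 and replicates 3 and 4.

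Fzd4 (chr7:89404355-89413134, plus strand), a Frizzled receptor of endothelial cells, was at 101, 75.3, 86.5 and 73.6 CPM in healthy libraries and at 158 and 129 CPM at day 1. The day 3 replicates were at 52.8, 64.0, 99.7 and 127 CPM, and those of day 7 at 108, 80.1, 95.7 and 89.0 CPM. Both day 1 libraries were above the healthy range, and the day 3 libraries lay on both sides of it. Its log2 fold change at day 1 was 0.77 (SE 0.29, adjusted p = 0.174, edgeR), and it was 0.03 at day 3 (adjusted p = 0.958) and 0.15 at day 7 (adjusted p = 0.773). The change from day 1 to day 3 was -0.74 (SE 0.29, adjusted p = 0.231). Of 22 alternative fits, 2 called Fzd4 at day 1 and 1 called its change from day 1 to day 3.

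Lrp6 (chr6:134446476-134566965, minus strand), a co-receptor that carries the Wnt signal to the beta-catenin complex, was at 114, 86.7, 101 and 105 CPM in healthy libraries and at 54.6 and 57.8 CPM at day 1. At day 3 it was at 41.2, 46.3, 67.7 and 94.98 CPM, and at day 7 at 98.9, 97.0, 109 and 109 CPM. Both day 1 libraries were below every healthy library, day 3 replicates 1 to 3 were below them too, and the day 7 libraries lay within the healthy range. Against healthy LSECs the log2 fold change was -0.86 (SE 0.29, adjusted p = 0.120) at day 1, -0.70 (SE 0.23, adjusted p = 0.0785) at day 3 and 0.02 (SE 0.22, adjusted p = 0.971) at day 7 by edgeR. Lrp6 passed the test of any difference among the 4 groups (adjusted p = 0.0495, edgeR). From day 1 to day 7 its log2 change was 0.88 (SE 0.29, adjusted p = 0.0751), and from day 3 to day 7 it was 0.73 (SE 0.23, adjusted p = 0.128).

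Without day 3 replicate 4, in which Lrp6 was near its healthy level, edgeR called Lrp6 at day 1 (log2 fold change -0.88, adjusted p = 0.0296) and at day 3 (-1.05, adjusted p = 0.0063). Over 22 alternative fits its adjusted p ranged from 0.00211 to 0.742 at day 1 and from 0.000574 to 0.216 at day 3. Lrp6 was called in 4 of the 22 at day 1 and in 4 at day 3.

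Lrp5 (chr19:3584828-3686564, minus strand), the other co-receptor, was at 23.9, 24.5, 29.7 and 25.2 CPM in healthy libraries and at 17.1 and 25.9 CPM at day 1. On day 3 its level was 16.2, 38.6, 18.6 and 22.6 CPM, and on day 7 it was 13, 23.3, 38.9 and 32.0 CPM. The groups overlapped at every time point, and the injured libraries were more spread out than the healthy ones. The fitted log2 change was -0.26 at day 1 (95% confidence interval -1.14 to 0.61), -0.10 at day 3 (-0.81 to 0.60) and 0.05 at day 7 (-0.65 to 0.76).

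Dkk3 (chr7:112116017-112159057, minus strand), a secreted protein gene of the dickkopf family, whose other members bind Lrp5 and Lrp6, was at 123, 100, 107 and 120 CPM in healthy libraries and at 71.3 and 103 CPM at day 1. The day 3 replicates were at 37.9, 43.2, 19.4 and 22.5 CPM, and those of day 7 at 37.5, 54.0, 25.6 and 42.5 CPM. All 8 libraries of days 3 and 7 were below every healthy and every day 1 library, and 1 of the 2 day 1 libraries lay within the healthy range. Dkk3 fell 3.65-fold at day 3 (log2 fold change -1.87, SE 0.28, adjusted p = 0.00273, edgeR) and 2.81-fold at day 7 (-1.49, SE 0.28, adjusted p = 0.0148, edgeR). At day 1 its log2 fold change was -0.37 (SE 0.34, adjusted p = 0.668). The difference between day 3 and day 1 was called too (-1.50, SE 0.32, adjusted p = 0.0281, edgeR), and that between day 7 and day 1 was at -1.13 (SE 0.33, adjusted p = 0.0501).

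The day 3 call of Dkk3 held in all 22 alternative fits, with a log2 fold change of -2.08 to -1.52 and an adjusted p of at most 0.0111, and the day 7 call held in 21 of 22. It was lost without healthy replicate 1 (log2 fold change -1.45, adjusted p = 0.0556). The call between day 3 and day 1 was lost without day 1 replicate 1 (-1.84, adjusted p = 0.102) and without day 1 replicate 2 (-1.32, adjusted p = 0.241), each of which left 1 library at day 1, assumed to vary like the other groups. It was also lost in a fit of these groups alone (-1.56, adjusted p = 0.121) and with the replicate number as a block (-1.31, adjusted p = 0.0573). Over the same groups the summed LSEC and endothelial markers ran from 21610 to 25620 CPM in healthy libraries and from 13080 to 18650 CPM at days 3 and 7. Their part in the fall of Dkk3 was not tested.

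Axin2 (chr11:108920349-108950783, plus strand), a scaffold of the beta-catenin destruction complex and a standard target gene of the pathway, was near the bottom of the range. It was at 1.55, 0.893, 1.27 and 0.595 CPM in healthy libraries and at 0.359 and 0.550 CPM at day 1. At day 3 it was at 0.786, 0.715, 1.43 and 1.45 CPM, and at day 7 at 0.468, 1.55, 1.35 and 1.28 CPM. The day 1 libraries were just below the lowest healthy library, and the other groups overlapped. The log2 fold change was -1.24 at day 1 (SE 0.58, adjusted p = 0.288, edgeR), 0.03 at day 3 (adjusted p = 0.980) and 0.11 at day 7 (adjusted p = 0.923). An exon of the antisense gene Gm11670 overlaps Axin2, so that its few reads are uncertain by strand as well as by number.

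Kit (chr5:75574916-75656722, plus strand), the receptor for stem cell factor, was at 49.9, 57.2, 68.3 and 65.7 CPM in healthy libraries and at 77.1 and 46.9 CPM at day 1. On day 3 its level was 49.6, 65.3, 56.7 and 82.0 CPM, and on day 7 it was 45.5, 47.1, 63.5 and 59.7 CPM. All groups overlapped the healthy range. The fitted log2 change was 0.04 at day 1 (95% confidence interval -0.51 to 0.59), 0.07 at day 3 (-0.38 to 0.52) and -0.16 at day 7 (-0.61 to 0.29), with an adjusted p of 0.706 or more by edgeR. Mast cells also carry Kit, and the summed level of 6 mast cell markers was at most 7.57 CPM in a library, and the part of mast cells in the level of Kit was not tested.

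Cdh13 (chr8:118283733-119324921, plus strand), which encodes T-cadherin, was at 91.5, 99.3, 109 and 126 CPM in healthy libraries and at 68.8 and 71.9 CPM at day 1. The day 3 replicates were at 57.8, 90.3, 31.6 and 16.9 CPM, and those of day 7 at 47.8, 44.7, 50.1 and 57.6 CPM. Every injured library was below every healthy library, at day 3 by little in replicate 2. Its log2 fold change was -0.60 at day 1 (SE 0.46, adjusted p = 0.567), -1.12 at day 3 (SE 0.37, adjusted p = 0.0877) and -1.09 at day 7 (SE 0.37, adjusted p = 0.117) by edgeR's test. Without day 3 replicate 4, the library with the lowest level, Cdh13 was called at day 3 (-0.94, adjusted p = 0.0368) and at day 7 (-1.10, adjusted p = 0.0214), and DESeq2 on all libraries called it at day 3 (adjusted p = 0.0296). Of 22 alternative fits, 5 called it at day 3 and 3 at day 7.

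The spread between libraries was widest at day 3 for 8 of the 10 genes, the exceptions being Kit, widest at day 1 (34.5%), and Axin2, widest at day 7 (41.1%). The coefficient of variation of CPM at day 3 was 98.9% for Wnt9b, 89.1% for Rspo3, 76.2% for Wnt2 and 65.6% for Cdh13, against 29.2%, 9.18%, 23.5% and 14.1% in healthy libraries. Replicates 1 and 2 had the higher Wnt2, Wnt9b, Rspo3, Cdh13 and Dkk3, and replicates 3 and 4 the higher Fzd4, Lrp6 and Axin2, while Kit and Lrp5 did not split that way. Replicates 1 and 2 also held more detected genes and more monocyte and neutrophil marker signal, as given above, and the part of these in the spread was not tested. Without day 3 replicate 4, edgeR called 5 of the 10 genes at day 3 in place of 1, adding Rspo3, Lrp6, Cdh13 and Wnt9b (log2 fold change 2.03, adjusted p = 0.0356), while the count over all tested genes rose from 1915 to 3314.

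**Figure D5:**
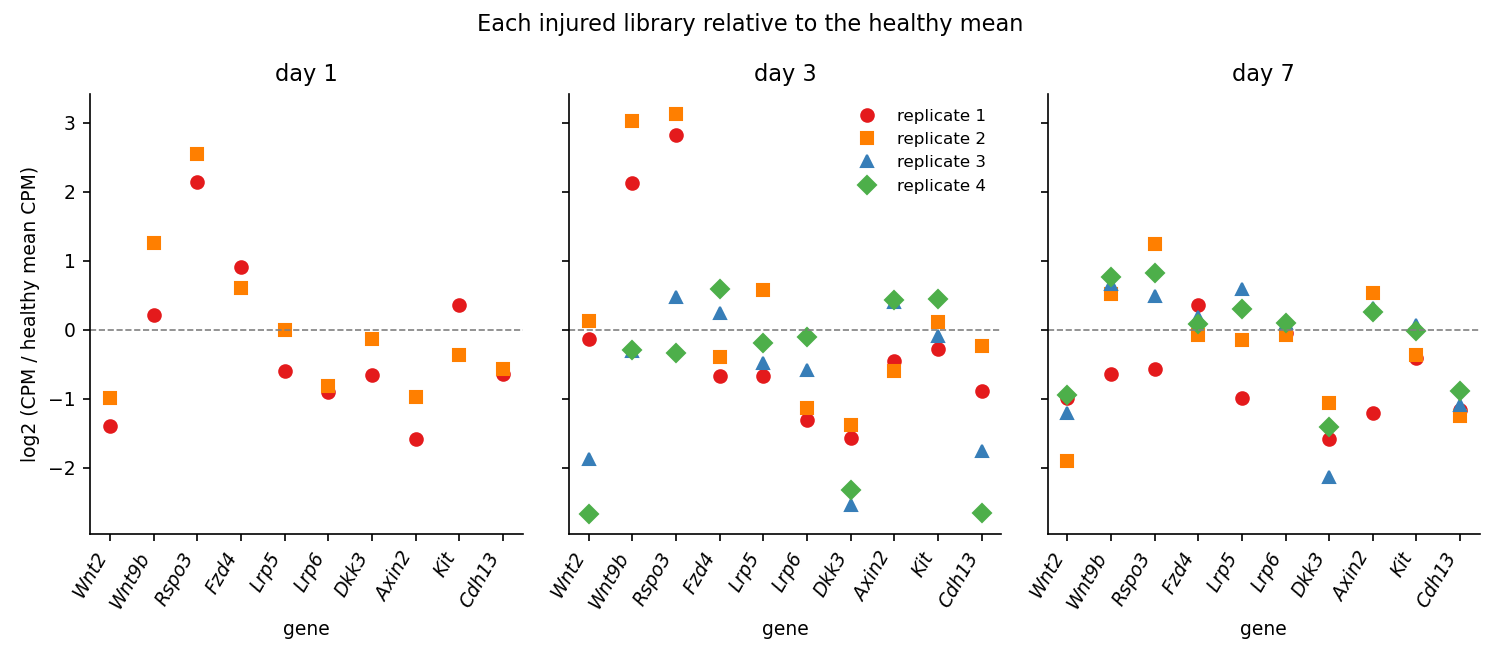
Log2 ratio of CPM in each injured library to the healthy mean, for the 10 genes at days 1, 3 and 7, with a symbol for the replicate number. At day 3 replicates 1 and 2 stand apart from replicates 3 and 4 for Wnt2, Wnt9b and Rspo3, and all 4 replicates are below 0 for Dkk3 and Cdh13.

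Across all 14 libraries, Wnt2 and Cdh13 varied together (Pearson r of log2 CPM 0.88), as did Wnt9b and Rspo3 (0.861) and Cdh13 and Dkk3 (0.83), while Rspo3 and Lrp6 ran opposite (-0.86). These are descriptions over libraries that share their groups and their composition. Among 12939 other protein-coding genes with a mean of at least 1 CPM, the patterns most like that of Wnt2 were those of Calml4 (r = 0.953), Dhrs7 (0.95) and Zfp931 (0.939). For Rspo3 they were Ackr3 (0.968), Cald1 (0.921) and Sfxn5 (0.917), and for Wnt9b Plbd2 (0.893), Pigt (0.887) and Vwf (0.886). By Spearman's rank correlation the Wnt9b matches were weaker, at 0.745 for Plbd2, 0.67 for Pigt and 0.842 for Vwf. The matches of Wnt2 were then at 0.895 to 0.947 and those of Rspo3 at 0.877 to 0.925. Kit had no such close match, its highest being Dcaf7 (0.77), Nol6 (0.77) and Crtc1 (0.761).

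Of 85 other genes of Wnt signalling (ligands, secretion factors, R-spondins and their receptors, Frizzled receptors, secreted antagonists, beta-catenin complex and feedback targets), 73 passed the filter on low counts. Against healthy LSECs, 1.37% of the 73 were called at day 1 (1 gene, lower), beside 4.06% of all tested genes. At day 3 it was 4.11% (3 genes, of which Frzb was higher), beside 7.19%, and at day 7 again 4.11% (3 genes, of which Porcn was lower), beside 3.18%, so that the list stood below or near the share over all genes. Its median log2 fold change was -0.08, 0.30 and 0.25 on these days, against -0.03, 0.18 and 0.02 over all tested genes. The secretion factors were lower: Porcn, which attaches the lipid that Wnt proteins need, fell by 1.23 on the log2 scale at day 3 (SE 0.26, adjusted p = 0.0140, edgeR) and by 1.03 at day 7 (SE 0.26, adjusted p = 0.0485). Wls, which carries Wnt proteins to the cell surface, fell by 0.64 at day 3 (SE 0.14, adjusted p = 0.0167, edgeR), a call held in 20 of 22 alternative fits and lost, among others, without healthy replicate 1. Porcn at day 7 held its call in 9 of 22 alternative fits, and at day 3 in all 22. The summed LSEC and endothelial markers were lower too, at 13160 to 18650 CPM at day 3 against 21610 to 25620 CPM in healthy libraries. Their part in the values of Porcn and Wls was not tested.

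The called antagonist Frzb rose from 0.918 ± 0.610 CPM in healthy libraries to 18.5 ± 4.84 CPM at day 3 (n = 4 each, log2 fold change 4.33, adjusted p = 0.00475, edgeR), and was at 2.81 to 37.6 CPM at day 7 (4.09, adjusted p = 0.0110). The ligand Wnt4 was at 1.66 to 2.20 CPM in healthy libraries and at 2.74 to 36.8 CPM at day 7 (3.00, adjusted p = 0.0192, edgeR). The day 7 call of Frzb was lost without healthy replicate 1 (adjusted p = 0.0516), and that of Wnt4 held in 17 of 22 alternative fits and was lost without healthy replicate 1, 2 or 3 or day 7 replicate 2. Without that day 7 library the log2 fold change was 3.18 for Frzb and 2.13 for Wnt4. The libraries of these days held the 15 stellate cell and fibroblast markers at the raised levels given above, and their part in Frzb and Wnt4 was not tested. Sost, another antagonist, had 23 to 38 reads in healthy libraries and 0 in both day 1 libraries, at least 9.63-fold lower with 3 reads per library as the floor (adjusted p = 0.0324, edgeR). This call was lost on leaving out any healthy or day 1 library.

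Other endothelial genes of both vein territories were set beside Kit and Cdh13. Of 6 genes listed as other pericentral endothelial genes, 3 were called higher at day 1, beside 4.06% of all tested genes. Thbd (thrombomodulin) rose 11.5-fold (log2 fold change 3.53, SE 0.41, adjusted p = 0.000382, edgeR), Selp (P-selectin) 9.55-fold and Fabp4 (a fatty acid binding protein) 4.91-fold. Without day 1 replicate 1, Selp and Fabp4 were not called (adjusted p = 0.0543 and 0.0676), and Thbd was called in all 22 alternative fits. At day 3, Selp (2.39, adjusted p = 0.0167) and Vwf (von Willebrand factor, 2.36, adjusted p = 0.0413) were called higher by edgeR. These were 2 of the 6, beside 7.19% of all tested genes, and both overlapped the healthy range. The calls held in 19 (Selp) and 9 (Vwf) of 22 alternative fits, both being lost without healthy replicate 1 or 3. Without day 3 replicate 2 the log2 fold change was 1.72 for Selp and 1.33 for Vwf. At day 7, edgeR called 0 of 6, beside 3.18% of all tested genes, with 1 at an unadjusted p under 0.05, beside 21.1%. DESeq2 called 0 of the 6 and 2722 genes in all, and limma called 1 of the 6. Fabp4 and Vwf belong to the signature of damaged LSECs that the study built. In healthy human livers the study found that signature slightly raised in periportal LSECs and portal endothelial cells. Whether these rises belong to a vein territory or to injury was not tested. Of 8 periportal endothelial genes, edgeR called Adgrg6 lower at day 1 (-1.99, adjusted p = 0.0108) and Ntn4, a netrin, at day 3 (-0.74, adjusted p = 0.0313). Over all tested genes 4.06% and 7.19% were called on these days. At day 1, 5 of the 8 had an unadjusted p under 0.05, beside 17.9% of all tested genes. DESeq2 called 3 of the 8 and 2806 genes in all, and limma called 5 of the 8. The median log2 fold change of the 8 was then -1.09, against -0.03 over all tested genes. At day 3, 3 had an unadjusted p under 0.05, beside 22.2% of all tested genes. DESeq2 called 2 of the 8 and 3758 genes in all, and limma called 4 of the 8. Adgrg6 was not called without either day 1 library, nor Ntn4 without healthy replicate 1, 2 or 3. At day 7, 0 of 8 were called by edgeR, beside 3.18% of all tested genes, with 5 at an unadjusted p under 0.05, beside 21.1%. DESeq2 called 0 of the 8 and 2722 genes in all, and limma called 4 of the 8. The limma counts over all genes are given further below. Beside these, the mean level of Kit was 62.0 CPM at day 1 and 60.3 CPM in healthy libraries, and that of Cdh13 was 70.3 and 107 CPM.

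Of 10 hepatocyte genes that Wnt signals are known to hold up around the central vein, edgeR called 1 lower at day 1 (Rgn), beside 4.06% of all tested genes. An unadjusted p under 0.05 was held by 6, beside 17.9% of all tested genes. DESeq2 called 6 of the 10 and 2806 genes in all, and limma called 1 of the 10. Rgn lay between 1.11 and 54.0 CPM in healthy libraries and between 0 and 0.0330 CPM at day 1. Not all genes of the list were lower. Glul was at 372 to 465 CPM at day 1 against 151 to 208 CPM in healthy libraries, without being called. Oat was at 118 to 125 CPM at day 1 against 111 to 132 CPM in healthy libraries. The summed hepatocyte markers were 201 to 8066 CPM in healthy libraries and 36.6 to 146 CPM at day 1, and their part in the value of Rgn was not tested.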

How the data were processed

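RNA of sorted LSECs in 14 samples was sequenced with a SMARTseq kit, which does not mark strand. Per the methods of the study, the authors trimmed and checked the reads, aligned them with STAR to GRCm38.p6 and assembled them with StringTie; the annotation release is not given in the sources used here. The deposited values are whole-number counts of reads per Ensembl gene, with a column per sample and no pooling. The authors sequenced 2 day 1 samples because others failed on RNA quality. The sources used here give the mouse age and the dose in more than 1 form, and the values of the labels are printed.

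Genes were named and measured for exon length with GENCODE vM21. Counts of all 14 samples were fitted together with edgeR 4.0.16 in R 4.3.3 (TMM factors, filterByExpr with a minimum count of 10, glmQLFit and glmQLFTest with a coefficient per group), and p-values were adjusted by the Benjamini-Hochberg method over all 26626 genes tested, with a threshold of 0.05. The standard error is the log2 fold change over the root of F. The fit was tested on simulated data with known changes. CPM used TMM-scaled library sizes, and log2 CPM a prior count of 2. DESeq2 1.42.0 and limma 3.58.1, other scaling and filters, fits of the 2 compared groups alone, other thresholds, a replicate block and leaving out each library were alternatives.

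All 10 genes are described. From the other lists, genes called against healthy were named, at most the 4 with the smallest p per list and comparison. The patterns most like a gene were ranked by Pearson r over the 14 samples. The genes and lists were chosen with earlier results of these data known. Nothing in the labels says more of the replicates than that they are separate samples, so p-values measure the spread between these samples. Counting error covers reads only, as no molecular identifiers were used.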

Additional observations from a re-analysis of the deposited data

Results flagged for a closer look

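Rspo3 in healthy replicate 4 stood at 34.9 CPM, apart from the other 3 healthy libraries, of which the nearest was at 29.4 CPM; the gap was 0.957 of the range of the group, above Dixon's 95% critical value for 4 samples. Of 30 groups of 4 libraries examined over the 10 genes this was the 1 that passed, and chance passes about 5% of groups. The same library held 8066 CPM of summed hepatocyte markers, and the part of that in the value was not tested. The effect of CCl4 on Dkk3 differed between day 3 and day 1, with a log2 difference of -1.50 (adjusted p = 0.0281, edgeR), and this rests on 2 libraries at day 1.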

How the results depend on the processing

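Of the 600 alternative values of the members' log2 fold changes that did not leave out a library, 517 kept direction and side of the threshold, 47 passed it newly, 4 lost it and 32 changed sign; of 840 that left out a library, the numbers were 759, 19, 3 and 59. The 600 include the reported fit read at thresholds of 0.01 and 0.10, where the log2 fold change could not differ. The cause of these changes was not tested.

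Genes called of 10 at day 1, day 3, day 7, day 3 against day 1, day 7 against day 1, day 7 against day 3 and in the test over 4 groups were 0, 1, 1, 1, 0, 0 and 2. DESeq2 gave 2, 5, 1, 1, 2, 1 and 4, and limma voom with quality weights 3, 4, 3, 2, 5, 3 and 7. Library size alone gave 2 at day 3 and 1 over 4 groups. No filter on low counts gave 2 at day 3 and 1 for day 7 against day 1, and a minimum of 10 counts in every sample 3 and 1. Fits of the 2 compared groups alone gave 4 at day 1, 3 at day 7, 0 for day 3 against day 1 and 3 for day 7 against day 1. A threshold of 0.01 gave 0 at day 7, 0 for day 3 against day 1 and 1 over 4 groups, and 0.10 gave 1 at day 1, 4 at day 3 and 2 for day 7 against day 1. Leaving out each library gave 0 to 2, 1 to 5, 0 to 2, 0 to 1, 0 to 3, 0 to 2 and 1 to 4; the highest counts came without day 3 replicate 4, the 0 at day 7 without healthy replicate 1.

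Replicate numbers did not pair the samples: of 18 same-numbered pairs of deviations from group means, 0 had r over 0.1 (-0.232 to 0.0962), and 0 of 14 samples correlated best with their own number. With the replicate number as a block, 0 were called for day 3 against day 1 and 1 over 4 groups, and the counts of all genes called fell from 1080 to 594 at day 1, from 1915 to 1385 at day 3 and from 846 to 435 at day 7. DESeq2 called 2806, 3758 and 2722 genes in these comparisons, limma 4308, 7265 and 7047, and edgeR without day 3 replicate 4 1845, 3314 and 2166.

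Sign changes were all in values not called in the fit reported. For Kit they were -0.0008 (limma), -0.0133 (library size), -0.0202 (no filter) and -0.0012 (2 groups) at day 1, -0.0275 (limma), -0.1125 (no filter) and -0.0085 (2 groups) at day 3, and -0.0267 (limma), -0.0923 (no filter), -0.143 (block) and -0.0073 (2 groups) for day 3 against day 1. For Axin2 they were -0.347 (limma), -0.140 (no filter), -0.0396 (block) and -0.026 (2 groups) at day 3 and -0.0276 (no filter) at day 7. For Fzd4 at day 3 they were -0.367 (limma), -0.142 (no filter), -0.0064 (block) and -0.031 (2 groups). For Lrp5 at day 7 they were -0.0885 (no filter) and -0.0263 (block), and for Lrp6 at day 7 -0.101 (no filter). For day 3 against day 1 they were 0.334 for Rspo3 (limma), and -0.256 (limma) and -0.0769 (block) for Lrp6. For Wnt2, day 7 against day 1, they were 0.0178 (DESeq2 and RLE factors), 0.0897 (library size), 0.084 (10 counts) and 0.274 (block). For Cdh13, day 7 against day 3, it was -0.376 (limma).

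Leaving out each library, values that changed sign ranged for Kit from -0.399 to 0.327 at day 1, from -0.168 to 0.139 at day 3, from -0.356 to 0.370 for day 3 against day 1 and from -0.481 to 0.245 for day 7 against day 1. For Axin2 they ranged from -0.247 to 0.255 at day 3, from -0.0692 to 0.378 at day 7 and from -0.0917 to 0.437 for day 7 against day 3. Fzd4 at day 3 ranged from -0.291 to 0.173, Lrp6 at day 7 from -0.046 to 0.082 and Lrp5 at day 7 from -0.153 to 0.269. Day 3 against day 1 ranged from -0.702 to 0.0701 for Rspo3, from -0.175 to 0.304 for Lrp6 and from -0.195 to 0.398 for Lrp5. Day 7 against day 1 ranged from -0.182 to 0.215 for Wnt2 and from -0.805 to 0.234 for Wnt9b, and Cdh13, day 7 against day 3, from -0.154 to 0.523.

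Scaling by library size moved the median of all genes by 0.12 on the log2 scale for day 7 against day 1. With 2 libraries at day 1, its values are the least certain, and in Axin2 the few reads limit every comparison.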
